A study of Mus musculus with 6 samples.

Results

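The genes of the cytosolic ribosomal proteins and of their paralogs were followed in whole testes of Stra8-deficient and wild-type mice. They were chosen by symbol alone, as the genes named Rpl, Rps or Rplp followed by a number, together with Rpsa and without the S6 kinases and the symbols marked as pseudogenes. The rule found 86 of the 21786 gene symbols that all 6 libraries share. Of these, 46 encode core proteins of the large subunit and 31 core proteins of the small subunit, 8 are paralogs of core genes, and 1, Rps19bp1, encodes a protein that binds Rps19 and is not a ribosomal protein.

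Polyadenylated RNA was sequenced from 3 testes of each genotype, all from C57BL/6 males. The Stra8-deficient testes were homozygous for the mutant allele, came from mice aged 1 year, were greatly enlarged and, per the labels, held mostly cells with the look of type A spermatogonia. The wild-type testes were Stra8 +/+ and came from mice aged 2 to 4 months. Stra8 is a factor that germ cells need in order to enter meiosis. Age and testis size followed genotype, so their effects cannot be told apart, and the part of Stra8 removed by the allele is not given in the sources used here.

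A ribosome carries each core protein once, apart from the stalk proteins, and the core genes are among the most evenly and strongly transcribed genes of dividing cells. Many of their mRNAs start with a terminal oligopyrimidine (TOP) tract, through which the kinase mTORC1 and the protein Larp1 set their translation. The mouse genome holds large numbers of processed copies of these genes, most of them pseudogenes. A few copies are genes in their own right. Rpl10l and Rpl39l are autosomal copies of X-linked genes and are used in the male germ line, in which the X chromosome is silenced during meiosis, and Rpl3l is known from heart and skeletal muscle.

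Because of these copies, the first question was how much of each gene can be told from other genes. The measure was the percentage of stretches of 36 bases in the coding sequence that occur in no other annotated mouse gene. Where no coding sequence is annotated for a gene, the measure was taken over the whole transcript. Its median was 3.7% over the 77 core genes, and 33 of them had no such stretch at all. Over the 76 genes of mitochondrial ribosomal proteins the median was 98.45%. The 33 core genes at 0% had 1 to 1806 reads over all 6 libraries, with a median of 140. The 20 core genes between 1.76% and 9.35% had a median of 203.5 reads and the 19 between 10.7% and 48.5% a median of 1320 reads. The 4 core genes described here from above 50%, at 52.1% to 89.5%, had 5348 to 41558 reads each. Reads per gene thus followed how distinct its sequence is (Spearman's rho 0.64 across the 77 core genes, which are not independent replicates and share the 6 libraries). How the authors treated reads that align to several places is not stated in the sources used here. The counter of such reads stood at 0 in 4 libraries and was absent for the first and second Stra8-deficient libraries. It does not give how such reads were treated before counting. The part of sequence distinctness in the results was not tested. A low count of a core gene is therefore no measure of how much of its mRNA the testis held.

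**Figure D1:**
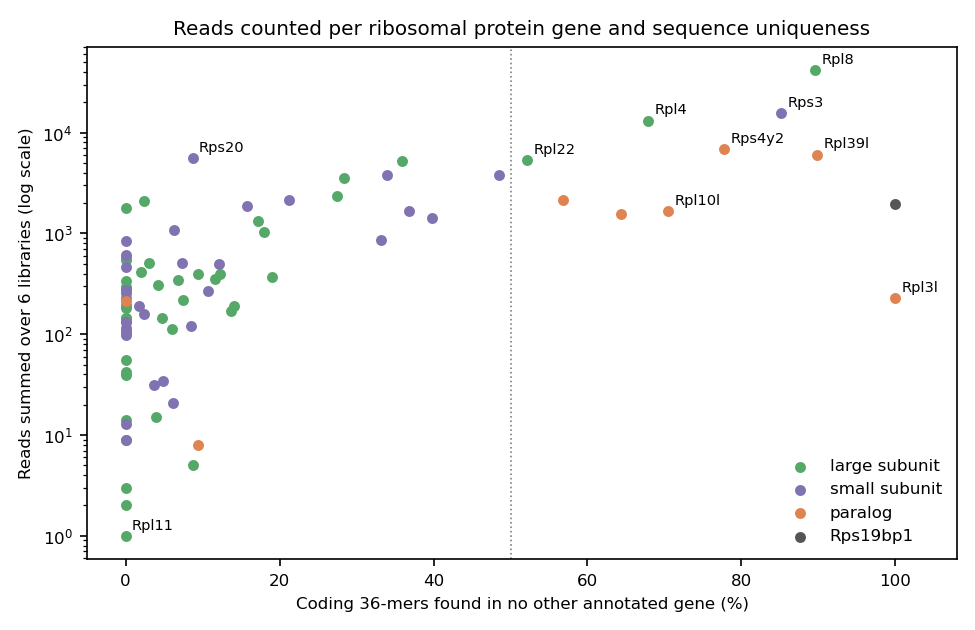
Reads summed over the 6 libraries (vertical axis, log scale) against the percentage of coding stretches of 36 bases found in no other annotated gene (horizontal axis), with 1 point for each of 85 genes. The percentage of Rps4y2 rests on 943 bases that are not a coding sequence alone. The 4 core genes plotted right of the dotted line at 50% have 5348 to 41558 reads each, and the 33 core genes at 0% have 1 to 1806.

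The core genes above 50% that are described here were Rpl8 (89.54%), Rps3 (85.16%), Rpl4 (67.92%) and Rpl22 (52.15%), and the next below 50% was Rps9 (48.45%). They are called the distinct core genes here. The line at 50% was drawn after the counts had been seen. These 4 genes held 44.68% of the 169285 reads assigned to core genes. Rpl8 alone held 24.55%.

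Among the paralogs, Rpl3l (100%), Rpl39l (89.83%), Rps4y2 (77.75%), Rpl10l (70.51%), Rps27l (64.29%) and Rpl7l1 (56.76%) were distinct, whereas Rpl22l1 (9.37%) and Rpl36al (0%) were not. The sequence used for Rps4y2 was 943 bases long, not a whole number of codons, against 789 bases for Rps4x. The Rps4y2 value is thus not 1 of a coding sequence alone and does not compare directly with the others. The coding sequences of the germline copies and of their X-linked parents show how far a distinct copy is from its parent. They are given without the stop codon, in lower case with the bases that differ between copy and parent in capitals. They come from the GENCODE M21 transcripts of build GRCm38, which is not the mm9 build named for the counts. Rpl39l lies at chr16:10170226-10174911 on the plus strand and Rpl39 at chrX:37082520-37085402 on the minus strand.
Rpl39l: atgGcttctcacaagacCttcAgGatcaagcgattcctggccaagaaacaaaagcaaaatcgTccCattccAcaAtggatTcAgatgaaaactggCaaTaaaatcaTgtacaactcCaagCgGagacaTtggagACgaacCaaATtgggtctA
Rpl39: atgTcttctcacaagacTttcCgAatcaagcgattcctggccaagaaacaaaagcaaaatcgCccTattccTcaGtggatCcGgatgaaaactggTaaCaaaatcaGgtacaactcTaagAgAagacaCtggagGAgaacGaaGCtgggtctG

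Over these 153 bases the copy and the parent differed at 23 positions, an identity of 85.0%, and the longest run without a difference was 38 bases. Rpl10l and Rpl10 differed at 98 of 642 positions (84.7% identity), with a longest identical run of 23 bases. That run is shorter than a stretch of 36 bases, and Rpl10l shares such stretches with 1 other annotated gene. The first 150 bases of Rpl10l and Rpl10, with 25 differences, show the same spacing. Rpl10l lies at chr12:66283379-66284401 on the minus strand and Rpl10 at chrX:74270812-74273135 on the plus strand.
Rpl10l: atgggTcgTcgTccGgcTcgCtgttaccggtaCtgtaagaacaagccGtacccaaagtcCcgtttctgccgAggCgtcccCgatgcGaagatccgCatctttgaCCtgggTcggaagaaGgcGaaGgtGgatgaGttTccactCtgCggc
Rpl10: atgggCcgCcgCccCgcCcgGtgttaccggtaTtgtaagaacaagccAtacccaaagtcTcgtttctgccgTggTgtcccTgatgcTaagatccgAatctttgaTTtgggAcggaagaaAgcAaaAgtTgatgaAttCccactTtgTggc

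Some libraries stood apart in the core genes. In the third Stra8-deficient library the core genes below 50% were higher than in the mean of the other 2 Stra8-deficient libraries by a median of 1.088 on the log2 scale, and 25 of the 48 tested exceeded a log2 difference of 1. For the 4 distinct core genes this median was 0.444, for the mitochondrial ribosomal protein genes 0.325, and for all tested genes -0.018. The deposited file of this library also lists more gene symbols than the other 5 files. Single core genes jumped between libraries of the same genotype. Rps28 had 653, 0 and 0 reads in Stra8-deficient libraries, against 185, 0 and 0 reads in wild-type ones. Rps13 had 4, 5 and 20 reads in Stra8-deficient libraries, against 247, 1 and 0 reads in wild-type ones. Rpl32 had 1661, 20 and 2464 reads in Stra8-deficient libraries, against 630, 247 and 150 reads in wild-type ones. All of these genes were below 50%, and no cause of the jumps was tested.

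The 4 distinct core genes were higher in Stra8-deficient testes, without overlap between the genotypes. Levels are CPM, reads per gene scaled to a common library total and by TMM, which aligns libraries on the bulk of their genes. Rps3, a small subunit protein that forms part of the entry of the mRNA channel, stood at 401, 319 and 477 CPM in Stra8-deficient libraries, against 68.2, 55.2 and 47.3 CPM in wild-type ones. Its lowest Stra8-deficient library lay several-fold above its highest wild-type library.

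The 3 large subunit genes among them had smaller fitted fold changes than Rps3. Rpl4, which lines the tunnel through which new protein leaves, stood at 309, 337 and 351 CPM in Stra8-deficient libraries, against 84.3, 65.8 and 57.1 CPM in wild-type ones. Rpl8, which lies near the site of peptide bond formation, stood at 860, 700 and 1290 CPM in Stra8-deficient libraries, against 356, 342 and 307 CPM in wild-type ones. Rpl22, an RNA-binding protein at the ribosome's surface, stood at 123, 104 and 159 CPM in Stra8-deficient libraries, against 42.0, 35.4 and 23.7 CPM in wild-type ones. Rpl4 varied least among the Stra8-deficient libraries (332 ± 21.6 CPM, SD, n = 3), and Rpl8 varied most (950 ± 305 CPM, SD, n = 3), with the third library the highest.

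The fold changes, Stra8-deficient over wild type, were 7.01-fold for Rps3 (log2 2.81 ± 0.23, SE; edgeR's quasi-likelihood test, p adjusted by Benjamini-Hochberg = 4.49e-06) and 4.81-fold for Rpl4 (2.27 ± 0.20; edgeR, adjusted p = 7.07e-06). They were 3.82-fold for Rpl22 (1.93 ± 0.26; edgeR, adjusted p = 0.000107) and 2.84-fold for Rpl8 (1.50 ± 0.24; edgeR, adjusted p = 0.000405). The background was wide. Over the 15018 genes tested 39% were called higher and 36.7% lower at an adjusted p under 0.05, so a call by itself sets no gene apart. The median log2 fold change of the 4 genes was 2.10, with an SD of 0.55 among them, and that of all tested genes was 0.11. All 4 remained called higher under every scaling, filter, test and left-out library that was run. Library size alone, which shifts the median of all tested genes to 0.73 and makes 63.6% of all calls higher ones, against 51.5% with TMM, gave the 4 genes a median of 2.71.

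**Figure D2:**
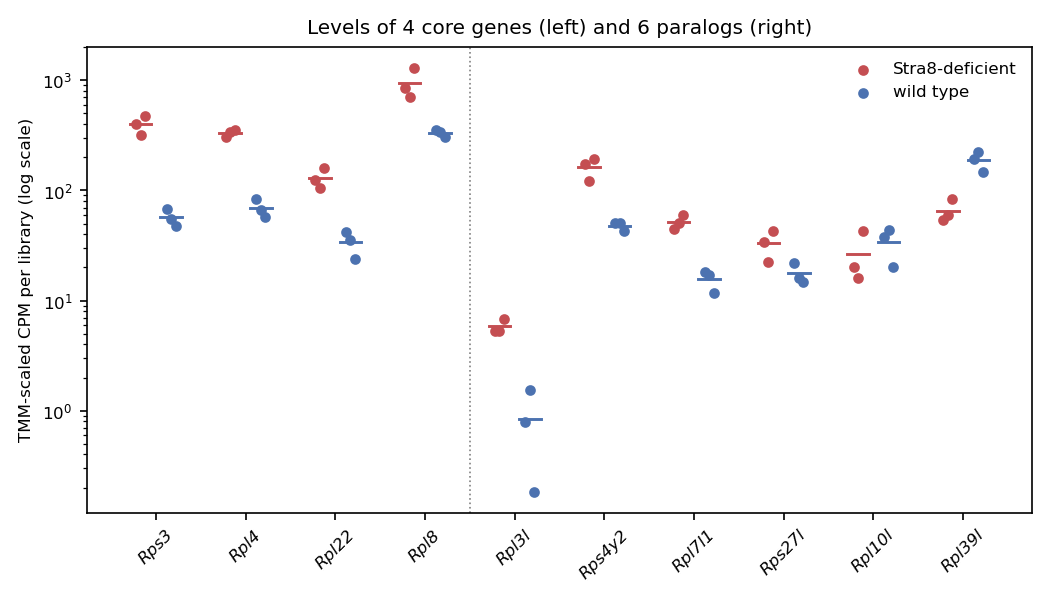
TMM-scaled CPM per library (vertical axis, log scale) of the 4 distinct core genes, left of the dotted line, and of 6 paralogs, right of it; points are the 3 libraries of each genotype and bars their means. The 4 core genes lie higher in every Stra8-deficient library than in any wild-type library, and Rpl39l lies lower.

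Ratios between these genes were also taken inside each library, where scaling plays no part. Rps3 reads amounted to 43.1 ± 5.3% of Rpl8 reads in Stra8-deficient testes, against 16.9 ± 2.0% in wild-type testes, and Rpl4 reads to 37.1 ± 10.5% and 20.5 ± 2.8% (SD, n = 3 each). For Rpl22 the ratio was 13.9 ± 1.3% in Stra8-deficient testes, against 9.95 ± 2.1% in wild-type testes (SD, n = 3 each). None of the 3 ratios overlapped between the genotypes, so reads of these core genes changed unequally relative to Rpl8. With 3 libraries in each genotype an exact permutation test cannot go below p = 0.1.

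Taken as a whole, the core genes held 0.453%, 0.342% and 0.686% of the gene reads in Stra8-deficient libraries, against 0.106%, 0.0810% and 0.0634% in wild-type ones. The mean share was 0.494 ± 0.176% in Stra8-deficient testes, against 0.0836 ± 0.0216% in wild-type testes (SD, n = 3 each), a ratio of 5.91. The core genes below 50% held 0.143 ± 0.074% in Stra8-deficient testes, against 0.0313 ± 0.0159% in wild-type testes, a ratio of 4.58. The 76 mitochondrial ribosomal protein genes held 0.488 ± 0.080% in Stra8-deficient testes, against 0.171 ± 0.007% in wild-type testes, a ratio of 2.85. The 8 paralogs held 0.0432 ± 0.0091% in Stra8-deficient testes, against 0.0247 ± 0.0047% in wild-type testes, a ratio of 1.75. All these shares are of library totals without TMM. With library size alone the median log2 fold change of all tested genes was 0.73. The paralog ratio lies near that general shift and does not set the paralogs apart. With the spermatid markers and the most abundant other genes of each genotype taken out of the totals, the ratio of the core share was 5.46. In whole testes, fewer cells of a type and less RNA per cell cannot be told apart.

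Of all 86 genes, 61 passed the filter on low counts, and the other 25 got no test. Of the 61, 44 were called higher, 1 lower and 16 neither, where 39% of all tested genes were called higher and 36.7% lower. The groups did not overlap in 39 of the 61, with the Stra8-deficient libraries higher, against 40.7% of all tested genes. Of the 53 core genes tested, 38 were called higher and none lower, 22 of 31 in the large and 16 of 22 in the small subunit. These counts describe genes that could pass the filter in a single genotype, and 21 of the 53 core genes reached the filter's level in fewer than 3 wild-type libraries. Among the 31 core genes that reached it in all 6 libraries, 20 were called higher and 11 were not called. The calls outside the distinct genes were sensitive to single libraries. Without the third wild-type library 28 of all the genes were called higher, 23 of them core genes. The number called lower was 2 without that library, with Rps13 as the second, and 2 without the third Stra8-deficient library, with Rpl10l as the second.

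Below 50% the fold changes scattered widely. The SD of the log2 fold change was 1.17 over the 53 tested core genes and 0.64 over the 7 of them whose average log2 CPM was 6 or more. The highest belonged to Rps3a, a small subunit protein near the mRNA exit, with 94, 54 and 919 reads in Stra8-deficient libraries, against 5, 3 and 2 reads in wild-type ones (5.56 ± 1.16; edgeR, adjusted p = 0.00262). Without the third Stra8-deficient library its value was 3.74 (edgeR, adjusted p = 0.00024), and with limma 4.82. Rpl23a, which docks the signal recognition particle at the tunnel's mouth, had 34, 70 and 32 reads in Stra8-deficient libraries, against 1, 1 and 2 reads in wild-type ones (4.16 ± 0.68; edgeR, adjusted p = 0.00042; 3.57 without the second Stra8-deficient library). Rpl31, its neighbour at the tunnel exit, had 15, 29 and 176 reads in Stra8-deficient libraries, against 2, 2 and 4 in wild-type ones (3.62 ± 0.90; edgeR, adjusted p = 0.00516; 2.28 without the third Stra8-deficient library). In these 3 genes all Stra8-deficient libraries lay above all wild-type libraries, on few wild-type reads. None of the 3 reached the filter's level in any wild-type library, so they were tested only because they are high in the other genotype. Their direction was thus set in part by the filter.

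Rplp1, a protein of the stalk that recruits translation factors, had 428, 210 and 2771 reads in Stra8-deficient libraries, against 56, 69 and 25 reads in wild-type ones (3.42 ± 0.86; edgeR, adjusted p = 0.00813; 2.01 without the third Stra8-deficient library). Its partners on the stalk were not called. Rplp2 had 133, 6 and 77 reads in Stra8-deficient libraries, against 77, 76 and 3 reads in wild-type ones, which overlapped (-0.31 ± 1.11; edgeR, adjusted p = 0.811). Its sign turned with library size alone (0.33) and without the second Stra8-deficient (0.19) or the first wild-type library (0.13). Rplp0, the base of the stalk, had 454, 265 and 1207 reads in Stra8-deficient libraries, against 235, 144 and 24 reads in wild-type ones (1.30 ± 0.69; edgeR, adjusted p = 0.12), and was called without the first wild-type library (2.00; edgeR, adjusted p = 0.0423). Rpl5, which carries the 5S rRNA into the large subunit, had 81, 182 and 10 reads in Stra8-deficient libraries, against 14, 0 and 1 reads in wild-type ones (3.43 ± 1.35; edgeR, adjusted p = 0.0472). Its call was lost without either the first or the second Stra8-deficient library or without the second or the third wild-type library (edgeR, adjusted p 0.0918, 0.147, 0.128 and 0.133), and its value was 6.52 without the first wild-type library. It was also lost with RLE factors, without the filter, with an offset for length and GC content, with DESeq2 and with limma (adjusted p 0.0558 to 0.198). Rpl5 reached the filter's level in 2 Stra8-deficient libraries and 1 wild-type library.

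At the low end lay 4 genes besides Rplp2, and none was called. Rps14, on the platform of the small subunit, had 294, 54 and 563 reads in Stra8-deficient libraries, against 372, 347 and 27 reads in wild-type ones (-0.63 ± 0.92; edgeR, adjusted p = 0.555). Rps24 was at -0.34 ± 0.77, Rpl27a at -0.05 ± 0.41 and Rps21 at 0.34 ± 0.80 (edgeR, adjusted p = 0.705, 0.925 and 0.711). The genotypes overlapped in all of them. The value of Rps24 was 1.18 without the first wild-type library, and that of Rps21 was -0.69 without the third Stra8-deficient library.

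Between these ends stood genes with more reads. Rps20, in the head of the small subunit, had 136, 98.4 and 174 CPM in Stra8-deficient libraries, against 34.4, 34.5 and 21.5 CPM in wild-type ones, although 8.70% of its stretches were distinct (2.18 ± 0.27; edgeR, adjusted p = 7.53e-05). Rps9, just below the 50% line, had 42.3, 38.8 and 175 CPM in Stra8-deficient libraries, against 18.7, 22.0 and 18.2 CPM in wild-type ones. Its value of 2.12 ± 0.58 (edgeR, adjusted p = 0.0103) was 1.03 without the third Stra8-deficient library. Rps19, in which mutations cause Diamond-Blackfan anaemia in humans, had 18.3, 17.5 and 95.5 CPM in Stra8-deficient libraries, against 4.84, 6.35 and 4.04 CPM in wild-type ones (3.10 ± 0.72; edgeR, adjusted p = 0.00468; 1.80 without the third Stra8-deficient library). In Rps9 and Rps19 the third Stra8-deficient library stood far above the other 2 of its genotype, and in Rps20 it did not.

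**Figure D3:**
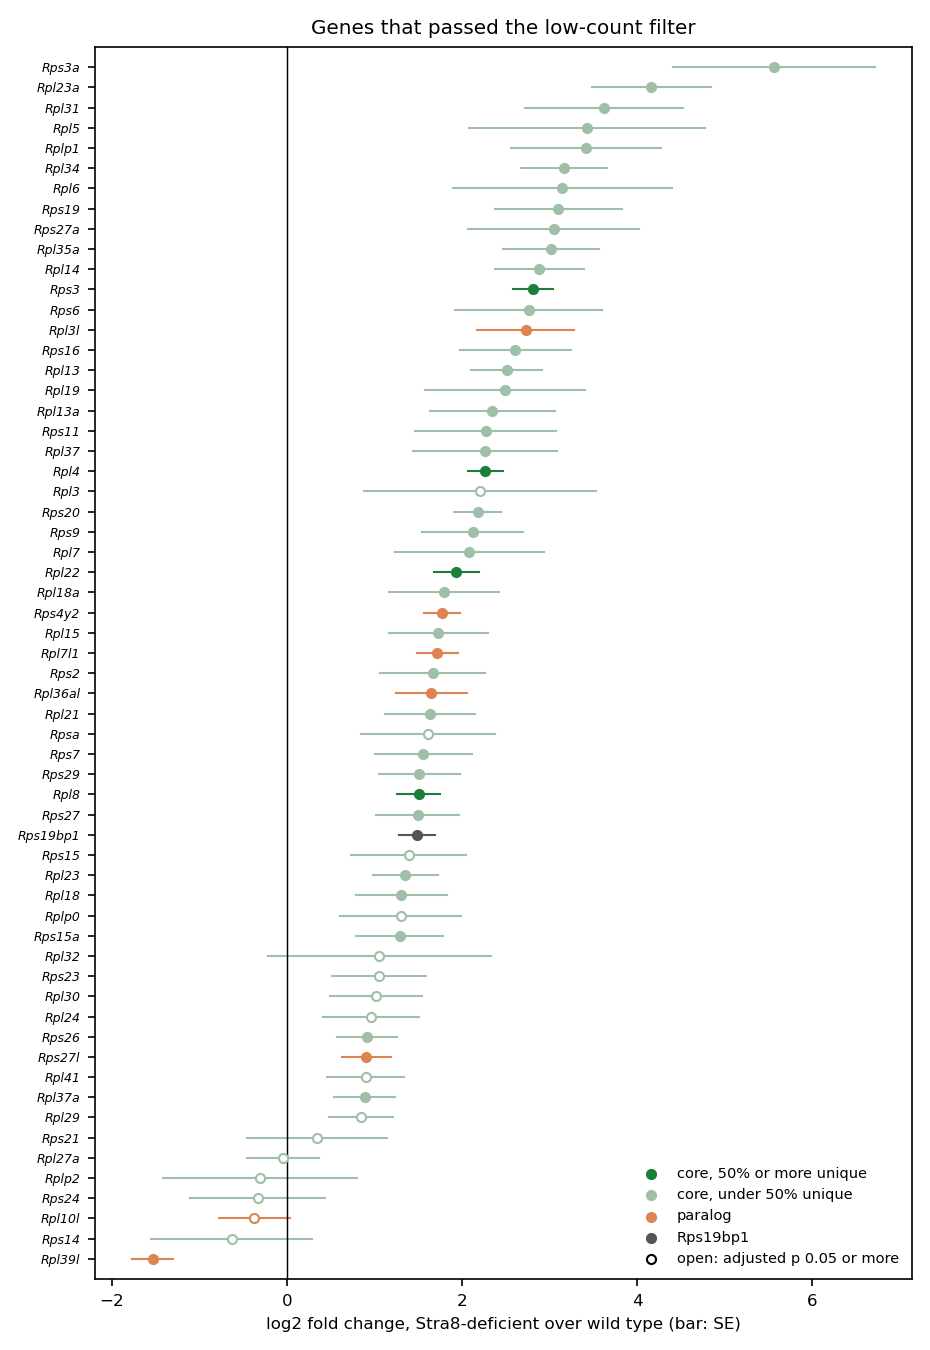
Log2 fold change, Stra8-deficient over wild type, with its SE (horizontal axis) for 60 of the 61 genes that passed the low-count filter, in falling order; filled points have an adjusted p under 0.05. Rps3a is highest at 5.56 and Rpl39l lowest at -1.53, and the 4 distinct core genes, in dark green, lie between 1.50 and 2.81.

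The 24 core genes without a test had few reads or reads in few libraries. Of them 10 had 0 wild-type reads. Against a limit of 3 reads over the 3 wild-type libraries, Rpl36a was at least 97.9-fold higher, on 4, 0 and 545 reads of which nearly all fell in the third Stra8-deficient library. Rpl17, with 2, 50 and 94 Stra8-deficient reads, was at least 26.0-fold higher. Rps13, at 29 Stra8-deficient and 248 wild-type reads, and Rps25, at 84 and 105 reads, owed nearly all of their wild-type reads to 1 library each.

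The paralogs split. Rpl39l, the germline copy printed above, was the only 1 of the 61 tested genes called lower. It stood at 53.4, 59.4 and 83.1 CPM in Stra8-deficient libraries, against 195, 226 and 147 CPM in wild-type ones, without overlap. The mean was 65.3 ± 15.7 CPM in Stra8-deficient testes, against 189 ± 39.6 CPM in wild-type testes (SD, n = 3 each), a log2 fold change of -1.53 ± 0.23 (edgeR's quasi-likelihood test, adjusted p = 0.00028). It stayed negative and called under every alternative that was run, at -0.92 with library size alone and -0.82 with an offset for length and GC content. Within libraries the contrast with a core gene was wider. Rpl39l reads amounted to 6.21%, 8.48% and 6.44% of Rpl8 reads in Stra8-deficient libraries, against 54.7%, 65.9% and 47.9% in wild-type ones.

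Rpl10l, which stands in for Rpl10 during male meiosis, was not called. It stood at 20.0, 16.0 and 42.9 CPM in Stra8-deficient libraries, against 38.1, 43.9 and 20.4 CPM in wild-type ones, so that the third library of each genotype lay within the range of the other. Its log2 fold change was -0.37 ± 0.41 (edgeR, adjusted p = 0.423), was -0.93 and called lower without the third Stra8-deficient library (edgeR, adjusted p = 0.0323), and turned to 0.24 with library size alone. Relative to Rpl8 it did not overlap, at 2.32%, 2.29% and 3.33% of Rpl8 reads in Stra8-deficient libraries, against 10.7%, 12.8% and 6.63% in wild-type ones. Relative to Rpl39l it was higher in the Stra8-deficient libraries, at 38.7 ± 12.4% of Rpl39l reads against 17.6 ± 3.3% in the wild-type libraries (SD, n = 3 each). Both germline copies thus were read in every Stra8-deficient library. In those libraries the 8 spermatid markers summed to 6.95 to 14.1 CPM, against 24200 to 28200 CPM in the wild-type libraries, and all 8 were called lower. The part of spermatid content in the levels of Rpl39l and Rpl10l was not tested.

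**Figure D4:**
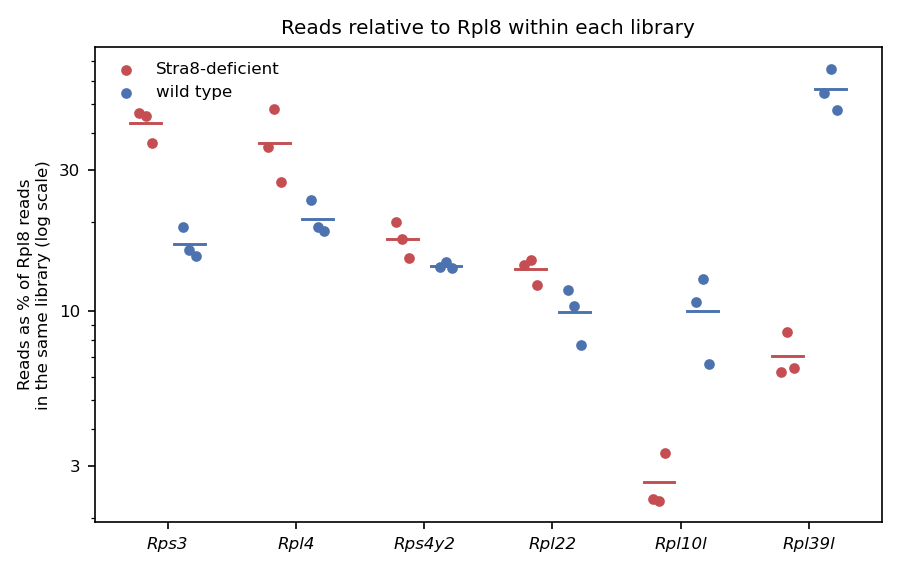
Reads of 6 genes as a percentage of Rpl8 reads in the same library (vertical axis, log scale), with 3 libraries per genotype and bars at the means. Rpl39l lies at 6.21% to 8.48% in the Stra8-deficient libraries and at 47.9% to 65.9% in the wild-type libraries, and Rps3 lies higher in every Stra8-deficient library than in any wild-type library.

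The other distinct paralogs were higher in Stra8-deficient testes. Rps4y2, an autosomal copy of X-linked Rps4x that RefSeq now names Rps4l and lists as a transcribed pseudogene, stood at 172, 122 and 195 CPM in Stra8-deficient libraries, against 50.1, 50.1 and 43.1 CPM in wild-type ones (1.77 ± 0.21; edgeR, adjusted p = 5.34e-05). Rpl7l1, a relative of Rpl7, stood at 44.9, 50.7 and 59.5 CPM in Stra8-deficient libraries, against 18.1, 17.2 and 11.7 CPM in wild-type ones (1.72 ± 0.23; edgeR, adjusted p = 0.000127). Rpl3l, the copy known from muscle, had 53, 56 and 102 reads in Stra8-deficient libraries, against 5, 11 and 1 reads in wild-type ones (2.73 ± 0.55; edgeR, adjusted p = 0.00155; 3.50 without the second wild-type library). In these 3 genes every Stra8-deficient library lay above every wild-type library. Rpl3l reached the filter's level in 3 Stra8-deficient libraries and 1 wild-type library, so it was tested only because it is high in Stra8-deficient testes.

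Rps27l, a copy of Rps27 known as a p53 target, stood at 34.1, 22.5 and 42.5 CPM in Stra8-deficient libraries, against 22.0, 16.0 and 14.9 CPM in wild-type ones. Its log2 fold change of 0.91 ± 0.28 (edgeR, adjusted p = 0.0157) was not called without the second or the third wild-type library (edgeR, adjusted p = 0.067 and 0.0715), and was 1.80 with an offset for length and GC content. Rpl36al, whose sequence is not distinct, had 43, 55 and 85 reads in Stra8-deficient libraries, against 14, 12 and 5 in wild-type ones (1.65 ± 0.40; edgeR, adjusted p = 0.00462). Rpl36al reached the filter's level in 3 Stra8-deficient and 2 wild-type libraries, so its wild-type reads alone would not have passed it. Rpl22l1, a paralog that Rpl22 is known to repress, had 3, 0 and 3 reads in Stra8-deficient libraries, against 0, 2 and 0 in wild-type ones and got no test. Rps19bp1, the binding protein, was at 45.8 ± 7.0 CPM in Stra8-deficient testes, against 16.4 ± 1.5 CPM in wild-type testes (SD, n = 3 each; 1.48 ± 0.20; edgeR, adjusted p = 0.000144).

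The parents of the paralogs had few distinct stretches and few reads. All 4 X-linked core genes, Rpl10, Rpl36a, Rpl39 and Rps4x, had 0 reads in every wild-type library. Rpl10 had 8, 19 and 12 reads in Stra8-deficient testes, at least 6.96-fold higher against the limit of 3 reads, and Rps4x had 6, 5 and 23, at least 6.06-fold higher. Rpl39 had 2, 0 and 1. Of Rpl10, Rpl36a and Rpl39 0% of the coding stretches were distinct, and of Rps4x 4.91%, so a count of 0 in wild type does not show that the X-linked gene was silent there.

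Among the autosomal parents, Rpl3 had 13, 8 and 445 reads in Stra8-deficient libraries, against 21, 13 and 10 in wild-type ones (2.21 ± 1.33; edgeR, adjusted p = 0.168), and -1.17 without the third Stra8-deficient library. Rpl7 was at 2.08 ± 0.85 (edgeR, adjusted p = 0.0495), a call lost without the first or the third library of either genotype (edgeR, adjusted p 0.11 to 0.153) or with RLE factors, no filter or limma (adjusted p 0.0556 to 0.118). Without the second wild-type library Rpl7 was at 4.49, and with limma at 2.75. Rps27 was at 1.49 ± 0.47 (edgeR, adjusted p = 0.0169), lost without the first or the third wild-type library (edgeR, adjusted p = 0.0876 and 0.0648) and with DESeq2 (adjusted p = 0.0513). Rpl7 and Rps27 each reached the filter's level in 3 Stra8-deficient libraries and 1 wild-type library. Both were thus tested only because they are high in Stra8-deficient testes. The share of the paralog in the reads of paralog plus parent was compared for 8 pairs by exact two-sided permutation, which cannot go below p = 0.1 with 3 libraries each. Rpl10l held 94.7 ± 4.3% of its pair in Stra8-deficient testes, against 100% in wild-type testes, and Rps4y2 held 99.5 ± 0.2% and 100% (SD, n = 3 each; exact p = 0.1 for both, 0.4 after Benjamini-Hochberg adjustment over the 8 pairs). The other 6 pairs had exact p-values of 0.3 to 1.

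The start of the mRNA was read from RefSeq promoters of build GRCm38.p6, in which 65 of the 86 genes were found. A tract was counted where the annotated start is a C followed by at least 4 pyrimidines on the gene's strand. It was present at 13 of 67 starts of core genes (19.4%), at 0 of 10 starts of paralogs and Rps19bp1, and at 823 of 32851 starts of all genes (2.51%). The windows run from 10 bases before the start to 20 bases from it, with the tract in capitals where there is 1. They show 4 of the 13 core genes with a tract, chosen after their values were seen, and the germline copies without. They lie at chr9:120571507-120571536 (plus strand) for Rpl14, chr16:33056472-33056501 (plus) for Rpl35a, chr4:86857348-86857377 (minus) for Rps6, chr7:118116128-118116157 (minus) for Rps15a, chr16:10170218-10170247 (plus) for Rpl39l and chr12:66284382-66284411 (minus) for Rpl10l.
Rpl14: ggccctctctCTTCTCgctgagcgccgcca
Rpl35a: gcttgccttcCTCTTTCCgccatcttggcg
Rps6: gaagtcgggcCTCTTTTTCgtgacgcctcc
Rps15a: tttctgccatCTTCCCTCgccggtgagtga
Rpl39l: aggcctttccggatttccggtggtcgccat
Rpl10l: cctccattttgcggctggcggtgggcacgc

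A window without these letters at the annotated base says only that. Pyrimidine runs can lie a few bases away from an annotated start. Of the core genes with a tract that are not shown, Rpl15 and Rps27 were called higher, and Rplp2 and Rps21 were not called. Rpl15 did not reach the filter's level in any wild-type library, and Rps27 reached it in 1. Rpl28, Rpl35, Rpl38, Rps10 and Rps18 got no test. A link between tract and fold change was not tested. Of the 4 core genes shown, Rpl14 was at 32.5 ± 19.4 CPM in Stra8-deficient testes, against 4.36 ± 1.6 CPM in wild-type testes (SD, n = 3 each; 2.88 ± 0.51; edgeR, adjusted p = 0.000663), and Rpl35a at 10.1 ± 4.0 and 1.21 ± 0.74 CPM (3.02 ± 0.55; edgeR, adjusted p = 0.000799). Rpl35a reached the filter's level in 3 Stra8-deficient and 2 wild-type libraries, so its wild-type reads alone would not have passed it. Rps6, the target of S6 kinase, had 15, 17 and 65 reads in Stra8-deficient libraries, against 0, 6 and 1 in wild-type ones (2.76 ± 0.84; edgeR, adjusted p = 0.0144), and lost its call without the third wild-type library (2.48; edgeR, adjusted p = 0.0624) and with limma (adjusted p = 0.0592). Its value was 2.05 without the third Stra8-deficient and 4.67 without the second wild-type library. Rps6 reached the filter's level in no wild-type library, so it was tested only because it is high in the other genotype. Rps15a was at 1.29 ± 0.49 (edgeR, adjusted p = 0.0384), and lost its call without the second Stra8-deficient library (0.58; edgeR, adjusted p = 0.193) and without the second or the third wild-type library (edgeR, adjusted p = 0.132 and 0.107) or with RLE factors (adjusted p = 0.0522).

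Ribosomal proteins under other symbols were added for comparison. Gnb2l1 (Rack1), a scaffold on the small subunit whose sequence is 96.18% distinct, stood at 1148, 1120 and 1176 CPM in Stra8-deficient libraries, against 153, 130 and 140 CPM in wild-type ones (3.02 ± 0.18; edgeR, adjusted p = 5.26e-07). Its SD over 3 libraries was 27.9 CPM in Stra8-deficient testes, against 11.5 CPM in wild-type testes. Fau, which encodes a ribosomal protein fused to a ubiquitin-like part, was at 0% distinct. It had 81, 83 and 543 reads in Stra8-deficient libraries, against 75, 69 and 41 in wild-type ones (0.86 ± 0.58; edgeR, adjusted p = 0.205; -0.28 without the third Stra8-deficient library).

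Genes that build ribosomes were mostly higher, where 39% of all tested genes were called higher and 36.7% lower. Of 14 tested genes for the transcription of ribosomal RNA by RNA polymerase I, 12 were called higher and 1 lower, with a median log2 fold change of 1.60 against 0.11 over all tested genes. Polr1c, a subunit that polymerases I and III share, stood at 478, 458 and 662 CPM in Stra8-deficient libraries, against 72.1, 77.9 and 74.1 CPM in wild-type ones (2.83 ± 0.20; edgeR, adjusted p = 2.12e-06). Twistnb, another subunit of polymerase I, had 80, 142 and 149 reads in Stra8-deficient libraries, against 9, 9 and 4 reads in wild-type ones (3.18 ± 0.40; edgeR, adjusted p = 7.89e-05). It reached the filter's level in no wild-type library, so it was tested only because it is high in the other genotype. Taf1b, of the factor that recruits the polymerase, was the 1 called lower (-1.12 ± 0.20; edgeR, adjusted p = 0.000834).

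Of 8 tested proteins of the small nucleolar particles that modify ribosomal RNA, 7 were called higher and none lower (median 2.65), among them Nhp2 (3.68 ± 0.37) and Nop56 (3.28 ± 0.21; edgeR, adjusted p = 1.94e-05 and 1.09e-06). Of 19 genes for assembly of the small subunit, 16 were called higher and none lower (median 1.97), led by Rcl1 (3.82 ± 0.20) and Wdr43 (3.49 ± 0.22; edgeR, adjusted p = 2.72e-07 and 9.02e-07). Of 26 genes for assembly of the large subunit, 20 were called higher and none lower (median 1.73). Ncl, which encodes nucleolin, stood at 860, 1093 and 1581 CPM in Stra8-deficient libraries, against 84.0, 96.6 and 136 CPM in wild-type ones (3.48 ± 0.30; edgeR, adjusted p = 6.5e-06), and Nip7 was at 3.53 ± 0.20 (edgeR, adjusted p = 4.77e-07). The genotypes did not overlap in these named genes.

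Genes named as translation initiation or elongation factors were called in both directions. Of 30 tested initiation factors 13 were called higher and 6 lower (median 0.54), and of 6 elongation factors 2 were called higher and 2 lower (median 0.003). The shares called higher lay near the 39% of all tested genes, so these counts set neither list apart. Eif3i, a subunit of the factor that binds the small subunit, was at 1.80 ± 0.17 (edgeR, adjusted p = 1.11e-05) and Eif3m at 1.96 ± 0.49 (edgeR, adjusted p = 0.0051; 1.36 without the third Stra8-deficient library). Eif4g3, a scaffold of the cap-binding complex that spermatocytes need, stood at 36.3, 31.4 and 32.0 CPM in Stra8-deficient libraries, against 914, 924 and 1020 CPM in wild-type ones (-4.84 ± 0.19; edgeR, adjusted p = 6.49e-08). Among genes named as elongation factors, Eef1b2 was at 2.05 ± 0.25 and Eef1e1 at 2.17 ± 0.24, whereas Eef1g was at -2.06 ± 0.44 (edgeR, adjusted p = 5.75e-05, 3.27e-05 and 0.00212).

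Of 17 tested genes outside the ribosome whose mRNAs are known to carry a TOP tract, 8 were called higher and 4 lower (median 0.74), with 39% and 36.7% among all tested genes as the background. Pabpc1, the poly(A)-binding protein, fell to 175, 119 and 174 CPM in Stra8-deficient libraries, against 1265, 1038 and 1147 CPM in wild-type ones (-2.89 ± 0.22; edgeR, adjusted p = 2.96e-06). Hnrnpa1 had 194 reads in Stra8-deficient testes and none in wild type, so that its read rate was at least 34.6-fold higher against 3 reads. It reached the filter's level in no wild-type library, so it was tested only because it is high in the other genotype. How distinct its sequence is was not measured, so the lack of wild-type reads does not show that its mRNA was absent. Tpt1 was at 3.35 ± 1.18 (edgeR, adjusted p = 0.0344), but lost its call without the third Stra8-deficient library (0.98; edgeR, adjusted p = 0.0804) and without any 1 of the wild-type libraries (edgeR, adjusted p 0.0785 to 0.135), and without the filter or with limma (adjusted p = 0.0805 and 0.0836). Of 14 regulators of mTORC1 and TOP mRNAs, 7 were called higher and 2 lower (median 0.57), on the same background, and on these counts neither list is set apart. Eif4ebp1, a translation repressor that mTORC1 switches off, was at 3.91 ± 0.22 and Larp1, which binds TOP tracts, at -3.14 ± 0.24 (edgeR, adjusted p = 4.34e-07 and 3.06e-06). Ddit4, an inhibitor of mTORC1, was at 2.43 ± 0.58 (edgeR, adjusted p = 0.00541) and, with the first Stra8-deficient library left out, at 1.34.

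The mitochondrial ribosomal proteins, whose sequences are mostly distinct, gave a second ribosome to set beside the cytosolic one. Of 76 tested, 51 were called higher and 7 lower, with a median of 1.18. Over all tested genes 39% were called higher and 36.7% lower, with a median of 0.11. Mrpl32 was the lowest of those called (-1.69 ± 0.32; edgeR, adjusted p = 0.00112). Mrps33 and Mrpl23 were the highest, on 1 and 3 wild-type reads. Neither reached the filter's level in any wild-type library, so they were tested only because they are high in the other genotype. Their rates were 31.0 times (5.35 to 1250, 95% counting interval) and 26.4 times (8.86 to 129) those of wild type.

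**Figure D5:**
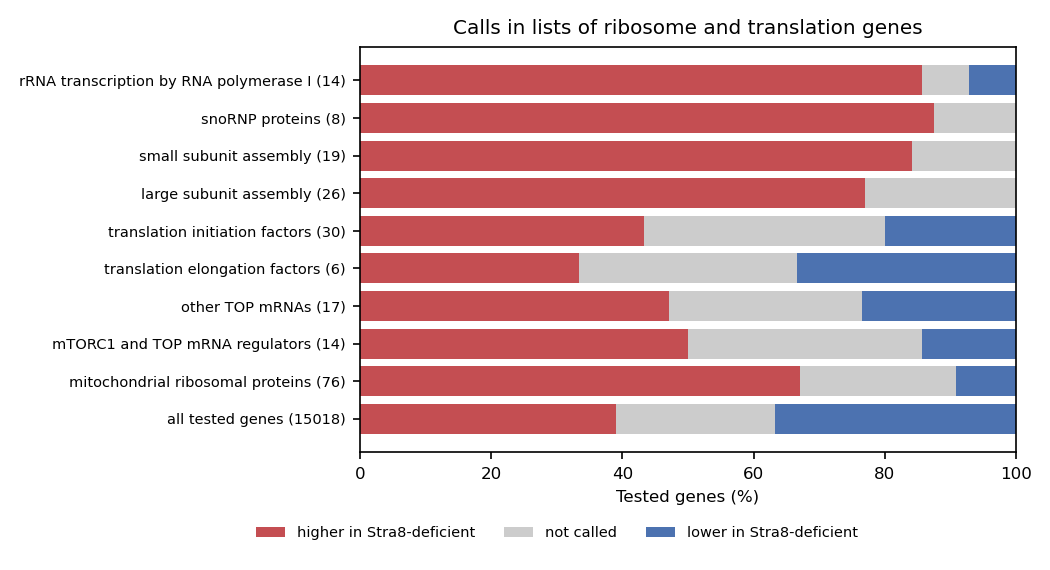
Share of the tested genes of each list called higher, called lower or not called in Stra8-deficient against wild-type testes (horizontal axis, percent), with the number of tested genes in brackets; the bottom bar is all 15018 tested genes. The assembly and small nucleolar particle lists have no gene called lower, and the initiation and elongation factor lists have genes in both directions.

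In the table of the authors' own comparison all 86 genes are listed. The authors' deposited table gives 64 of them higher and 2 lower at a false discovery rate under 0.05, where it gives 33.7% of its 19119 genes higher and 32.4% lower. The 2 lower ones in the authors' deposited table are Rpl39l (log2 ratio -1.53) and Rps13 (-4.10), whose wild-type reads nearly all came from 1 library. For Rpl8 the authors' deposited table gives 1.50, and for Rpl10l -0.38 (false discovery rate 0.378).

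The libraries held 7883466, 8561174 and 12425689 gene reads for Stra8-deficient and 7910732, 8937224 and 6733128 for wild-type testes. Stra8 itself was at 21.0 ± 2.8 CPM in Stra8-deficient testes, against 18.1 ± 0.9 CPM in wild-type testes (SD, n = 3 each; 0.21 ± 0.21; edgeR, adjusted p = 0.384), and with the allele not described this level is no check of the labels. Of 9 markers of undifferentiated spermatogonia 6 were called higher and 3 lower, and they summed to 807 to 1440 CPM in Stra8-deficient libraries, against 88.1 to 97.4 CPM in wild-type ones. Of 9 Sertoli cell markers 8 were called lower, with sums of 90.9 to 703 CPM in Stra8-deficient libraries, against 1920 to 2100 CPM in wild-type ones. The 7 macrophage markers, 5 of them called higher and 1 lower, summed to 189 to 682 CPM in Stra8-deficient libraries, against 391 to 454 CPM in wild-type ones, and the 6 Leydig cell markers, none called, to 18.4 to 2680 CPM and 747 to 1230 CPM. The 7 lymphocyte markers summed to 12.3 to 29.9 CPM in Stra8-deficient libraries, against 5.15 to 8.33 CPM in wild-type ones. No marker of these lists was at 0 in the Stra8-deficient libraries, and Cd79a was at 0 in the wild-type libraries. The part of cell content in the ribosomal protein results was not tested.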

How the data were processed

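Polyadenylated RNA of 3 Stra8-deficient and 3 wild-type testes was sequenced. TopHat, HTSeq, edgeR and the mm9 build are named in the submitters' processing notes. The sources used here give neither their versions nor the read length, the strand setting or the handling of reads with several alignments. Whole, unnormalised counts of reads per gene symbol were deposited. The authors' deposited comparison gives log2 ratios and p-values, nominal and corrected for false discovery. The third Stra8-deficient file lists 23285 symbols and the other files 22055, so the 21786 shared symbols were used. HTSeq's counters of reads not assigned to a gene, which lie outside genes or are ambiguous (together 20.9% to 34.5% of reads), were left out. Columns not matched to a label numbered 0. Some genes enter the counts over all genes but are not reported here singly, in the figures or among the distinct core genes.

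Counts were filtered with filterByExpr (about 1.22 CPM in 3 libraries), scaled by TMM (factors 1.21 to 1.27 for Stra8-deficient and 0.796 to 0.813 for wild type) and tested with edgeR's quasi-likelihood F test (edgeR 4.0.16, R 4.3.3; limma 3.58.1 and DESeq2 1.42.0 for alternatives), genotype being the 1 term, with Benjamini-Hochberg adjustment over the 15018 tested genes and a threshold of 0.05. SEs were derived from the F statistic and are approximate. The fit was tested on simulated data. Folds against 0 reads are bounds against 3 reads over the genotype, and counting intervals (95%, exact) cover counting error only. Coding sequences, lengths and stretches of 36 bases came from GENCODE M21, matched by name for all 86 genes, and promoters from RefSeq. The pathway genes named were, per list, the 2 called genes that changed most in the main direction and 1 in the other, with an average log2 CPM of 0 or more. Core genes named by rule were the 5 with the highest and the 5 with the lowest fold change; Rps20, Rps9, Rps19, Rplp0, the 4 shown with a TOP tract and the genes with jumps were chosen after their values were seen. The genes, lists and tests were chosen with earlier results of these data known.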

Additional observations from a re-analysis of the deposited data

How the results depend on the processing

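Of the 86 genes 44 were called higher, where 39% of all tested genes were. Leaving out 1 library in turn gave 28 to 48 (lowest without the third wild-type library), and for the core genes, an alternative chosen after seeing the data, 23 to 42 against 38. The count was 37 with RLE factors, 50 with upper-quartile factors, 52 with library size alone, 47 without the filter, 43 with an offset for length and GC content, 36 with DESeq2 and 36 with limma. The 4 distinct core genes were called higher in each of these. The number called lower was 1 to 2 when 1 library was left out, the second being Rpl10l without the third Stra8-deficient and Rps13 without the third wild-type library. The ratio of core shares was 4.76 to 6.84 when 1 library was left out. With library size alone 2 of the ribosomal proteins under other symbols were called higher. The SD of 1.17 among core genes became 0.637 over genes with an average log2 CPM of 6 or more. Replicate numbers did not pair the libraries: same-numbered libraries deviated from their group means with correlations of 0.058, 0.08 and -0.04, and the third Stra8-deficient library correlated best with the first wild-type one (0.076). With the replicate block 34 genes were called higher, 28 of them core genes. The background moved with the scaling as well. Over all 15018 tested genes 5860 were called higher with TMM, 5528 with RLE factors, 6645 with upper-quartile factors and 7550 with library size alone.

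Uncalled values turned sign as follows; the cause was not tested. With library size alone Rpl10l was at 0.24, Rpl27a at 0.56, Rplp2 at 0.33 and Rps24 at 0.27. Rpl27a was at 0.23 with upper-quartile factors and 0.071 with the offset, and from -0.31 (without the second Stra8-deficient library) to 0.19 when 1 library was left out. Leaving out 1 library gave Rpl3 -1.17 to 2.69, Rps21 -0.69 to 0.76 and Fau -0.28 to 1.15, each lowest without the third and highest without the second Stra8-deficient library. It gave Rplp2 -1.46 (without the first Stra8-deficient library) to 0.19 (without the second), and Rps24 -0.97 (without the third Stra8-deficient library) to 1.18 (without the first wild-type library). Rps24 was at 0.059 with the replicate block and 0.18 with limma, and Rpl32 at -0.19 with limma. Folds that rest on fewer than 10 wild-type reads are limited by counting error.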
